A study of Mus musculus with 6 samples.

Results

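The genes described here carry mouse symbols that begin with Nduf, and nearly all of them encode subunits or assembly factors of mitochondrial complex I. Every row of the expression table whose Entrez ID maps to such a symbol was taken, pseudogenes excepted, which gave 46 of 13734 genes. They comprise 37 complex I subunits, 7 assembly factors (symbols beginning Ndufaf) and 2 genes named for complex I but now placed outside it, Ndufa4 and Ndufa4l2. Rows of 2 Nduf pseudogenes were left out. Of 49 annotated Nduf genes, 3 (Ndufb1, Ndufb4b and Ndufaf7) are not analysed here. The members lie on 17 mouse chromosomes.

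Complex I (NADH:ubiquinone oxidoreductase) is the main entry point of electrons into the respiratory chain. Its peripheral arm holds the N module, which oxidises NADH, and the Q module, which passes the electrons to ubiquinone, while its membrane arm pumps protons. Some membrane subunits are encoded by mitochondrial DNA, but every gene described here is nuclear. Assembly factors help to build the complex and do not stay in the finished enzyme. In adipocytes the respiratory chain takes up electrons released by the oxidation of fatty acids.

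The cells came from 1 immortalized line of mouse subcutaneous white preadipocytes with Dicer1 flox/flox alleles and Cre-ERT2, a recombinase that 4-hydroxytamoxifen switches on. Dicer1 encodes the enzyme that matures microRNAs. From day 6 of differentiation, 3 cultures were given 10 µM 4-hydroxytamoxifen for 48 h (DICER_KO) and 3 were given ethanol (control, with the same alleles and recombinase). The sample titles call these controls WT. All 6 were stimulated with isoproterenol, a beta-adrenergic agonist, at 10 µM for 6 h, and poly(A) RNA was sequenced. Deletion and drug exposure cannot be told apart, and the spread between libraries may be technical, because separate differentiations are not stated. The comparison asks which of these transcripts differ once Dicer1 is deleted.

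The libraries need a description before the results. They held from 13569034 reads on the genes of the table (DICER_KO replicate 1) to 30268077 (DICER_KO replicate 3). Those reads were 71.5% of the library size implied by the CPM values in DICER_KO replicate 3, and 75.2% to 77.1% in the others. The part of these differences in the results was not tested. Dicer1 stood at 6.14, 6.09 and 6.14 log2 CPM in the control libraries, against 5.43, 5.47 and 5.49 after deletion, a fall of 0.66 on the log2 scale (limma adjusted p = 0.0150). That call was lost when any single library other than DICER_KO replicate 3 was left out (adjusted p from 0.0568 to 0.146), with the difference between -0.68 and -0.64. With all libraries Dicer1 stood at 0.633 of the control level, and how complete the deletion was cannot be read from these values. DICER_KO replicate 3 stood apart from the rest. Mature adipocyte markers summed to 7502 to 9461 CPM in controls, to 12253 and 12091 CPM in DICER_KO replicates 1 and 2, and to 3713 CPM in replicate 3, where all 12 lay below every control. In replicates 1 and 2, 10 of the 12 were above the control mean. Lpl and Cd36 were below it (-0.30 and -0.15 without replicate 3). Preadipocyte and fibroblast markers (10 of 11 analysed) summed to 7809 to 8931 CPM in controls and 4286 to 5376 CPM in DICER_KO, and the collagen gene Col3a1 fell by 1.44 (adjusted p = 0.00856, and 0.0785 without control replicate 3). Col1a1 (-0.70) and Dcn (-0.81) carried the sum with it, while Pdgfra (-0.06), Pdgfrb (0.02), Ly6a (-0.05) and Cd34 (-0.04) had differences near 0. Thy1 differed by -0.46 (adjusted p = 0.112), with every DICER_KO library below every control, as in 9.81% of all genes. Macrophage markers (5 of 8) summed to 24.0 to 29.0 CPM in controls and 29.0 to 32.3 CPM in DICER_KO, and endothelial markers (5 of 6) to 5.54 to 6.41 and 6.85 to 8.88 CPM. Of the macrophage markers tested, Cd68 differed by 0.39 and Csf1r by -0.16, and of the endothelial markers Tek by 0.67 and Kdr by -1.39. In bulk RNA, fewer cells of a type and less RNA per cell cannot be told apart. Results are therefore given with and without replicate 3, and the part of the adipocyte markers in them was not tested.

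Promoter sequences are shown first because most subunit genes moved together within each library. Of the members, 39 have a window in the RefSeq promoter table (GRCm38.p6), which runs from 250 bases before to 50 bases after the start. The windows were searched on both strands for the letters of 5 motifs: NRF1 (core GCGCANGCG), ETS factors such as GABP (CCGGAAG), YY1 (AANATGGCG), ERR (TNAAGGTCA) and SP1 (GGGCGG). NRF1, GABP and YY1 are known regulators of nuclear genes for mitochondria, and ERR receptors act with PGC-1 coactivators. The 250 bases before the start are printed 5′ to 3′ for 4 genes, with matches in capitals. Ndufb4 is shown as the member with an ERR match, Ndufa5 and Ndufc2 for their large differences, and Ndufaf4 as an assembly factor.

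Ndufb4 (chr16:37654369-37654618, minus strand): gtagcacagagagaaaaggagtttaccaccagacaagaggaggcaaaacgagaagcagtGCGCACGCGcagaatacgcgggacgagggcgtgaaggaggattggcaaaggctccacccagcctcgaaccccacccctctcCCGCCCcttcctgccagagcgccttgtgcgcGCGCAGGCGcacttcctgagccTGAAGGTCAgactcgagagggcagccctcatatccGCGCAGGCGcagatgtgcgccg
Ndufa5 (chr6:24527691-24527940, minus strand): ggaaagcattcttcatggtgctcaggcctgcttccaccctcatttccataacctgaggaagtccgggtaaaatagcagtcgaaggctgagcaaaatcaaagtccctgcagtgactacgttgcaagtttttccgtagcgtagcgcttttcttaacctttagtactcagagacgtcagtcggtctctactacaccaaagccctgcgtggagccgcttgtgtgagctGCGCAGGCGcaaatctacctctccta
Ndufaf4 (chr4:24897833-24898082, plus strand): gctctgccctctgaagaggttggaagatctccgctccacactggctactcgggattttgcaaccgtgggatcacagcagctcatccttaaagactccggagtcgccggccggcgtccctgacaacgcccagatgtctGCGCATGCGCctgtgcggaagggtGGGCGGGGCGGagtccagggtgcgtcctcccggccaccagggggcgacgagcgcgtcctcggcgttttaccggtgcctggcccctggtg
Ndufc2 (chr7:97399753-97400002, plus strand): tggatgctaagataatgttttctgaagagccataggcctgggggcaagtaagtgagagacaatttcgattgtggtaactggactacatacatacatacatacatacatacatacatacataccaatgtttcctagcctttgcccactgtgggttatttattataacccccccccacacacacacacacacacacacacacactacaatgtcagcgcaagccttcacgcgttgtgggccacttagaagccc

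In the Ndufb4 sequence the capitals mark 3 NRF1 matches, which begin 191, 79 and 22 bases before the start, an ERR match at 57 bases and an SP1 match on the other strand at 110 bases. Ndufa5 held 1 NRF1 match, 26 bases before this start, and the table lists a further start for it. Before that further start, not printed, an NRF1 match lay at 190 bases and an SP1 match at 161 bases. In Ndufaf4 the capitals mark NRF1 letters that match on both strands, at 113 and 112 bases, and 2 overlapping SP1 matches at 89 and 84 bases. Ndufc2 held none of the 5 motifs in these bases. An NRF1 match was found for 8 of 32 subunits with a window (25%) and 2 of 6 assembly factors (33.3%), against 14.5% of 7932 tested genes with a window. YY1 matches stood in 7 subunit windows (21.9%) against 5.38% of tested genes, and SP1 matches in 15 (46.9%) against 68.9%. ETS matches stood in 4 (12.5%) against 18.9%, and the single ERR match was 3.12% of subunits against 0.870%. The median log2 difference (DICER_KO minus control) was 0.24 for subunits with an NRF1 match and 0.28 for those without. With and without a match it was 0.31 and 0.25 for ETS, 0.27 and 0.26 for YY1, and 0.28 and 0.25 for SP1. Leaving out DICER_KO replicate 3, these pairs were 0.45 and 0.46 (NRF1), 0.51 and 0.43 (ETS), 0.34 and 0.46 (YY1), and 0.45 and 0.46 (SP1). Differences by match were not tested. A match describes letters in a window, not a bound site.

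With all libraries, every one of the 37 subunit genes had a positive difference, and 0 passed the test in either direction. A gene passed at an adjusted p under 0.05 over 10054 genes that reached 1 CPM in 3 or more libraries, a filter that all 46 members passed. Over all those genes 0.149% were called higher, 0.288% lower, and 52.8% had a positive difference. The subunits' median difference was 0.28, from 0.01 in Ndufa11 to 0.64 in Ndufb4c, beside 0.02 over all genes. The median was 0.15 without DICER_KO replicate 1. Ndufa11 turned to -0.02 when each library was re-centred on the median of all genes and to as low as -0.12 (without control replicate 3) when single libraries were left out. Ndufa7 (-0.0150) and Ndufv1 (-0.00839) turned negative without DICER_KO replicate 1. At an unadjusted p under 0.05, 6 subunits were higher (Ndufa1, Ndufa5, Ndufb6, Ndufc2, Ndufs3 and Ndufs4) and 0 lower, where 8.49% of all genes were higher and 7.35% lower.

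The libraries behind that median differed. Against the control mean, the subunits' median lay at 0.48 and 0.43 in DICER_KO replicates 1 and 2 and at -0.08 in replicate 3. In replicates 1 and 2 all 37 subunits were above the control mean, as were 52.7% and 54% of all genes. In replicate 3, 6 were, beside 52.1% of all genes. Replicates 1 and 2 both exceeded every control in 36 subunits, all but Ndufa11, a pattern that 28.2% of all genes showed. Replicate 3 was below every control in 20 subunits (28.9% of all genes) and above every control in 1 (28.8%). Subunit transcripts together made up 2836 to 2868 CPM in controls, 3974 and 3736 CPM in DICER_KO replicates 1 and 2, and 2623 CPM in replicate 3. The adipocyte markers' medians in the same 3 libraries were 0.60, 0.64 and -1.18. Both medians thus lay above the control mean in replicates 1 and 2 and below it in replicate 3.

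**Figure D1:**
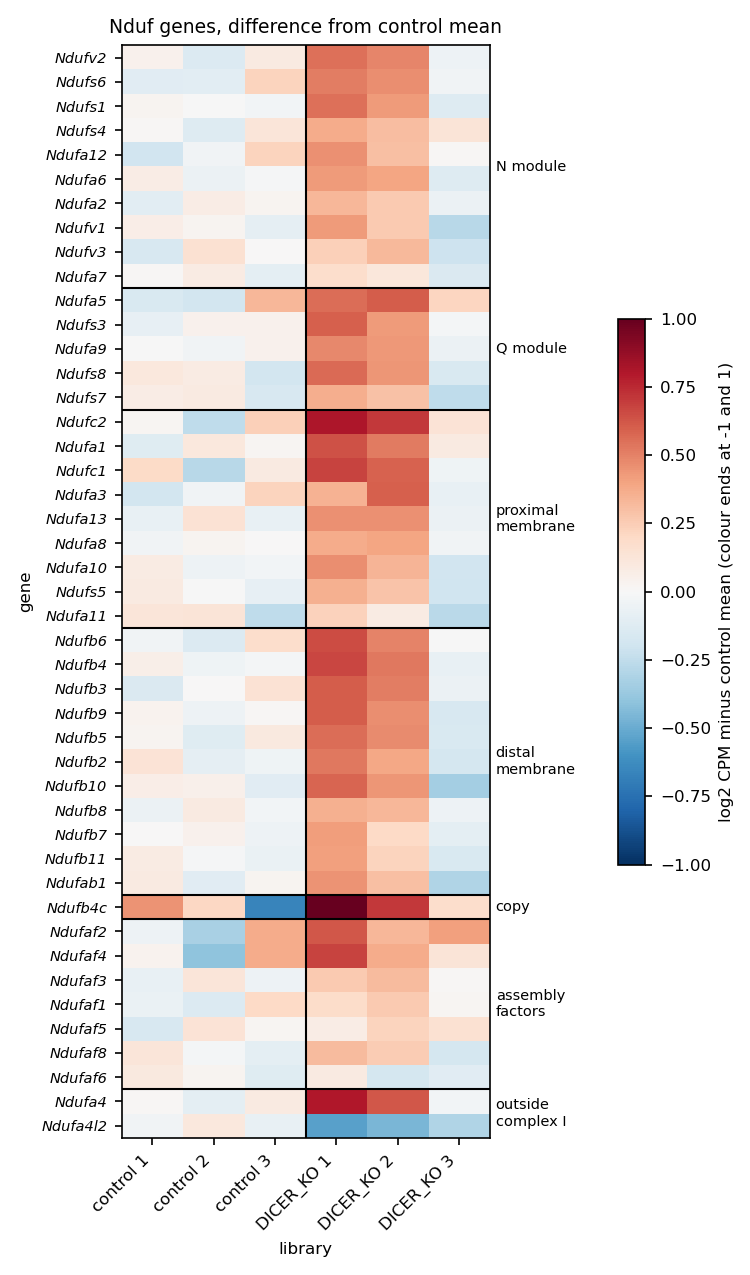
Log2 CPM minus the control mean for Nduf genes (rows, grouped by module, with the copy Ndufb4c in a row of its own; 1 other member is not drawn) in the 6 libraries (columns); red is above and blue below the control mean. Every subunit gene drawn is above it in DICER_KO replicates 1 and 2, and 6 are in replicate 3.

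Without DICER_KO replicate 3, 33 of 37 subunits rose and 0 fell, where 12.5% of all genes rose and 7.22% fell. Their median difference was then 0.46, which is 1.38-fold. The 4 that missed the threshold were Ndufa7 (0.14, adjusted p = 0.304), Ndufa11 (0.15, 0.389), Ndufv3 (0.28, 0.0771) and Ndufb4c (0.87, 0.0800). That fit leaves out the library that differed, so it describes replicates 1 and 2 and not every DICER_KO culture. Leaving out any other single library gave 0 subunit calls in either direction.

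**Figure D2:**
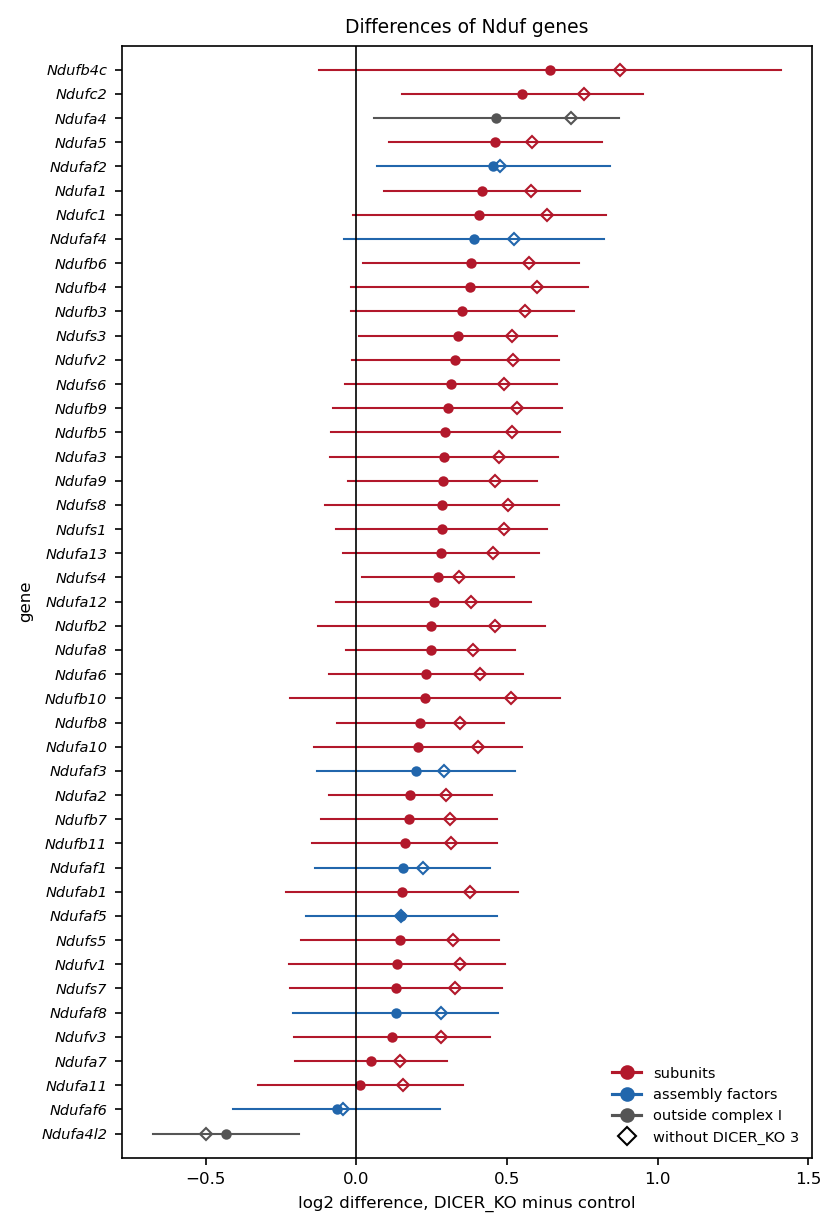
Log2 difference (DICER_KO minus control) of Nduf genes (Ndufb4c included; 1 other member is not drawn) with all libraries (filled circles; lines are the 95% interval of each gene alone) and without DICER_KO replicate 3 (open diamonds). Subunits run from 0.01 to 0.64, and Ndufa4l2 lies at -0.43.

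The nuclear core subunits are conserved in bacteria and belong to the N and Q modules, which hold the flavin, the iron-sulphur clusters and the quinone site. Ndufv1, which binds NADH and flavin, stood at 7.55, 7.51 and 7.40 log2 CPM in the control libraries, against 7.91, 7.75 and 7.21 after deletion. Its iron-sulphur partner Ndufv2 stood at 6.54, 6.36 and 6.59 log2 CPM in the control libraries, against 7.05, 6.99 and 6.45 after deletion. Ndufs1, the largest subunit of the N module, stood at 6.90, 6.87 and 6.85 log2 CPM in the control libraries, against 7.43, 7.30 and 6.75 after deletion. In each, replicates 1 and 2 were above every control, while replicate 3 was below every control in Ndufv1 and Ndufs1 and among them in Ndufv2. Ndufs7, at the quinone pocket, stood at 6.66, 6.67 and 6.42 log2 CPM in the control libraries, against 6.94, 6.87 and 6.33 after deletion, with replicate 3 the lowest library. Ndufs3, a Q module subunit of early assembly, stood at 5.91, 6.04 and 6.04 log2 CPM in the control libraries, against 6.60, 6.43 and 5.98 after deletion. Ndufs8, which holds iron-sulphur clusters, stood at 5.64, 5.62 and 5.36 log2 CPM in the control libraries, against 6.11, 5.98 and 5.39 after deletion. Here replicate 3 lay among the controls. With all libraries the differences of these genes ran from 0.13 in Ndufs7 to 0.34 in Ndufs3 (adjusted p from 0.306 to 0.678). Without DICER_KO replicate 1 they ran from -0.01 in Ndufv1 to 0.22 in Ndufv2. Without replicate 3 each of them rose, by 0.33 in Ndufs7 (adjusted p = 0.0377) to 0.52 in Ndufv2 (adjusted p = 0.00228).

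The other 30 subunits are supernumerary, that is, absent from the bacterial enzyme, and their median difference of 0.26 stood beside 0.28 for the core. By module the medians were 0.24 for 10 N module genes, 0.30 for 6 of the Q module, 0.28 for 9 of the proximal membrane arm and 0.25 for 11 of the distal membrane arm. Without DICER_KO replicate 3 they were 0.36, 0.51, 0.45 and 0.51, and 8, 6, 8 and 11 genes rose, beside 12.5% of all genes. In replicate 3 alone the module medians were -0.09, -0.11, -0.06 and -0.15 against the control mean, so all 4 modules were slightly below it. Differences between modules were not tested. Across 36 subunits with a transcript length, the difference had a Pearson r of -0.095 and a Spearman rho of -0.0268 with that length, as a description across genes of the same libraries.

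Ndufc2 (Entrez 68197; GRCm38 chromosome 7, 97400003 to 97407800), a membrane arm subunit, had the largest difference of the subunits other than Ndufb4c. Ndufc2 stood at 5.95, 5.68 and 6.17 log2 CPM in the control libraries, against 6.74, 6.64 and 6.07 after deletion. Replicates 1 and 2 were above every control and replicate 3 lay among them. Its difference was 0.55 (SE 0.18, adjusted p = 0.217), and with replicate 3 left out Ndufc2 rose by 0.76 (adjusted p = 0.000659). Ndufa5, of the Q module, stood at 5.15, 5.12 and 5.64 log2 CPM in the control libraries, against 5.87, 5.91 and 5.52 after deletion, a difference of 0.46 (adjusted p = 0.229). Ndufa1, an X-linked membrane subunit, stood at 4.97, 5.20 and 5.11 log2 CPM in the control libraries, against 5.73, 5.61 and 5.18 after deletion, a difference of 0.42 (adjusted p = 0.239). Both repeat the order seen in Ndufc2. Ndufc1 stood at 5.30, 4.84 and 5.20 log2 CPM in the control libraries, against 5.79, 5.70 and 5.07 after deletion, a difference of 0.41 (adjusted p = 0.326). Ndufb6 stood at 5.90, 5.79 and 6.10 log2 CPM in the control libraries, against 6.58, 6.42 and 5.93 after deletion, a difference of 0.38 (adjusted p = 0.298). Replicate 3 lay among the controls in these membrane arm subunits too.

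Ndufb4c is a copy of the membrane subunit gene Ndufb4, and it held only 17 to 57 reads per library. It stood at 0.71, 0.47 and -0.40 log2 CPM in the control libraries, against 1.31, 0.97 and 0.44 after deletion, a difference of 0.64 (SE 0.35, adjusted p = 0.377), or 0.31 without control replicate 3. Reads may have been divided between this copy and Ndufb4, so both values are uncertain. Ndufb4 stood at 4.23, 4.12 and 4.15 log2 CPM in the control libraries, against 4.84, 4.70 and 4.10 after deletion, a difference of 0.38 (adjusted p = 0.330). These were the subunits of lowest log2 CPM, and Ndufb9, of the distal membrane arm, had the highest. Ndufb9 stood at 7.80, 7.71 and 7.77 log2 CPM in the control libraries, against 8.37, 8.22 and 7.60 after deletion, with replicate 3 below every control.

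Ndufs4, an N module subunit whose loss causes a Leigh-like disease in mice, was the 1 subunit in which every DICER_KO library exceeded every control. Ndufs4 stood at 5.54, 5.40 and 5.64 log2 CPM in the control libraries, against 5.90, 5.83 and 5.66 after deletion. The margin between replicate 3 and the highest control was narrow, and the difference was 0.27 (SE 0.11, adjusted p = 0.293). Over all genes 10.4% were separated upward, so 1 of 37 subunits is fewer than that share. The smallest subunit differences were in Ndufa11, Ndufa7, Ndufv3 and Ndufs7. Ndufa11, of the membrane arm, stood at 5.74, 5.75 and 5.36 log2 CPM in the control libraries, against 5.85, 5.70 and 5.35 after deletion, a difference of 0.01 (adjusted p = 0.972). Ndufa7, of the N module, stood at 6.65, 6.72 and 6.54 log2 CPM in the control libraries, against 6.81, 6.75 and 6.49 after deletion, a difference of 0.05 (adjusted p = 0.843). Ndufv3, of the N module, stood at 6.40, 6.71 and 6.57 log2 CPM in the control libraries, against 6.80, 6.89 and 6.36 after deletion, a difference of 0.12 (adjusted p = 0.686). Whether these genes differ from the other subunits was not tested.

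The assembly factors had a smaller median difference than the subunits when all libraries were used. Of 7 Ndufaf genes 6 had a positive difference, 0 passed in either direction, and the median was 0.15, which is 0.13 below that of the subunits. The means lay closer together, at 0.27 for the subunits and 0.20 for the assembly factors. The assembly factors' medians against the control mean were 0.26, 0.26 and 0.02 in DICER_KO replicates 1 to 3. The subunit median minus the assembly median was 0.22 and 0.17 in replicates 1 and 2, -0.09 in replicate 3, and -0.02 to 0.07 in controls. Subunits thus led in replicates 1 and 2 and not in replicate 3. Without DICER_KO replicate 1 the difference of medians turned to -0.01, and without replicate 3 it was 0.18. In the latter, 1 of 7 assembly factors rose (Ndufaf4), a share close to the 12.5% of all genes, and the median was 0.28. Assembly factors had 126 to 1326 reads per library and subunits other than Ndufb4c 395 to 8222, and the part of depth in these counts was not tested.

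**Figure D3:**
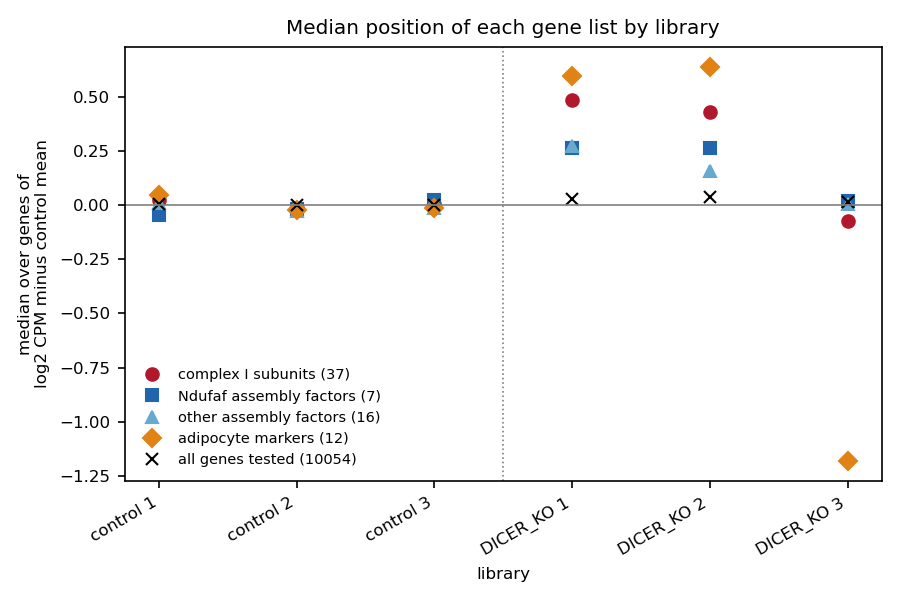
Median over genes of log2 CPM minus the control mean in each of 6 libraries (x axis) for complex I subunits, Ndufaf assembly factors, other assembly factors, adipocyte markers and all genes tested. The subunit medians are 0.48, 0.43 and -0.08 in the DICER_KO libraries and the Ndufaf medians 0.26, 0.26 and 0.02.

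Ndufaf2, a late assembly factor related to the subunit Ndufa12, had the largest difference of the group. Ndufaf2 stood at 3.96, 3.68 and 4.38 log2 CPM in the control libraries, against 4.63, 4.34 and 4.42 after deletion, a difference of 0.45 (SE 0.17, adjusted p = 0.265). Here replicate 3 was above every control and replicate 2 was not. Ndufaf4, an early factor, stood at 4.87, 4.44 and 5.21 log2 CPM in the control libraries, against 5.52, 5.21 and 4.97 after deletion, a difference of 0.39 (adjusted p = 0.350). With replicate 3 left out Ndufaf4 rose by 0.52 (adjusted p = 0.0418), while its difference was 0.19 without control replicate 2 and 0.25 without DICER_KO replicate 1. Its partner Ndufaf3 stood at 2.93, 3.13 and 2.95 log2 CPM in the control libraries, against 3.27, 3.33 and 3.02 after deletion, a difference of 0.20 (adjusted p = 0.499). In both, replicate 3 lay among the controls. Ndufaf1, which acts on a membrane arm intermediate, stood at 4.34, 4.27 and 4.61 log2 CPM in the control libraries, against 4.59, 4.67 and 4.43 after deletion, a difference of 0.15 (adjusted p = 0.543). Ndufaf5, which hydroxylates Ndufs7, stood at 2.87, 3.16 and 3.05 log2 CPM in the control libraries, against 3.10, 3.25 and 3.18 after deletion, a difference of 0.15 (adjusted p = 0.593). The groups overlapped in each. Ndufaf8, a partner of Ndufaf5, stood at 3.92, 3.78 and 3.71 log2 CPM in the control libraries, against 4.12, 4.06 and 3.63 after deletion, a difference of 0.13 (adjusted p = 0.672). Ndufaf6 stood at 2.85, 2.78 and 2.63 log2 CPM in the control libraries, against 2.85, 2.57 and 2.64 after deletion, a difference of -0.07 (adjusted p = 0.844), the 1 negative value among the assembly factors.

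Assembly factors without an Nduf symbol (16 of 18 listed) had a median difference of 0.17, with 14 positive and 0 past the test in either direction. Their medians in DICER_KO replicates 1 to 3 were 0.27, 0.16 and 0.01 against the control mean. In 3 of the 16 every DICER_KO library exceeded every control, beside 10.4% of all genes. Tmem126a stood at 4.31, 4.47 and 4.46 log2 CPM in the control libraries, against 4.79, 4.66 and 4.77 after deletion, a difference of 0.33 (adjusted p = 0.228). Its paralogue Tmem126b, part of a complex that builds the membrane arm, stood at 3.30, 3.29 and 3.46 log2 CPM in the control libraries, against 3.59, 3.63 and 3.60 after deletion, a difference of 0.26 (adjusted p = 0.341). The last was Tmem186 (0.25, adjusted p = 0.368), named after its values were seen. Without replicate 3, 2 of the 16 rose (Aifm1 and Pyurf, also named after their values were seen), a share close to the 12.5% of all genes.

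Levels of different genes were compared per length, as CPM per kilobase of the principal annotated transcript (GENCODE M21, GRCm38), averaged over the 6 libraries. The median level was 86.8 CPM per kb for 36 subunits and 9.28 for 7 assembly factors, a ratio of 9.36. Subunits ran from 8.31 in Ndufb2 to 349 in Ndufb9, and assembly factors from 5.82 in Ndufaf3 to 28.4 in Ndufaf2. All but 3 subunits (Ndufb2, Ndufab1 and Ndufb4) exceeded the highest assembly factor. The principal transcripts of Ndufb2 (4371 bases) and Ndufab1 (3479 bases) are long, and use of shorter forms, which would raise their level, was not tested. By module, the median level per length was 76.0 CPM per kb in the N module, 79.0 in the Q module, 85.3 in the proximal and 108 in the distal membrane arm. The log2 gap between subunit and assembly medians was 2.94 to 3.28 in controls and 3.00 to 3.31 in DICER_KO, so the groups overlapped.

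**Figure D4:**
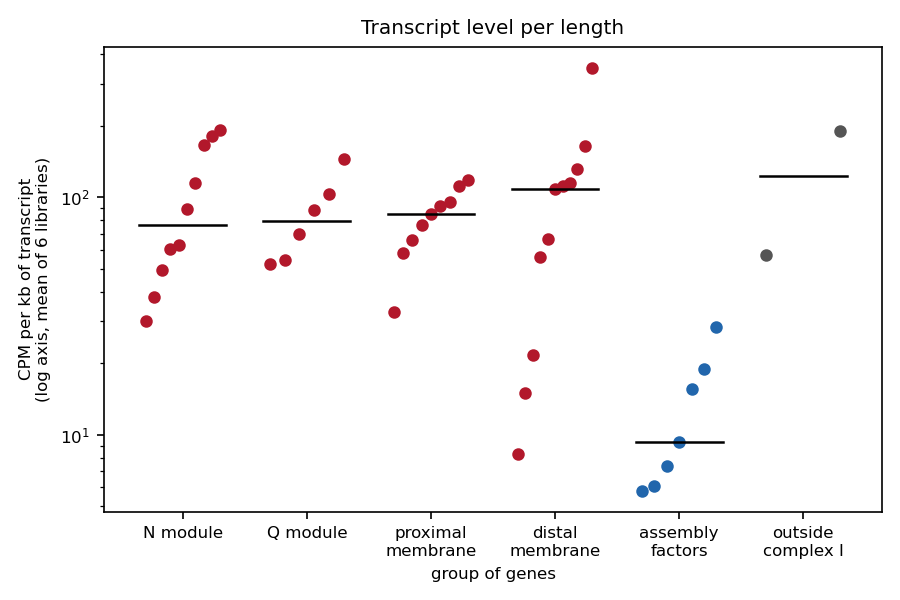
Transcript level in CPM per kb (log axis, mean of 6 libraries) for Nduf genes with a transcript length, by module; each point is a gene and each bar a median. Assembly factors lie between 5.82 and 28.4 and subunits between 8.31 and 349.

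The pair of Nduf genes outside complex I had differences of opposite sign. Ndufa4 (Entrez 17992), once counted as a complex I subunit, is now assigned to cytochrome c oxidase. Ndufa4 stood at 6.59, 6.47 and 6.66 log2 CPM in the control libraries, against 7.37, 7.20 and 6.54 after deletion, the order seen in most subunits. Its difference was 0.46 (SE 0.18, adjusted p = 0.275), and with replicate 3 left out Ndufa4 rose by 0.71 (adjusted p = 0.000200). Its paralogue Ndufa4l2 (Entrez 407790; GRCm38 chromosome 10, 127509274 to 127517154) is induced by hypoxia and known to lower complex I activity. Ndufa4l2 stood at 5.90, 6.04 and 5.86 log2 CPM in the control libraries, against 5.39, 5.47 and 5.63 after deletion. Every DICER_KO library, replicate 3 included, was below every control, which held for 9.81% of all genes and for no other member. The level was 5.93 ± 0.09 in controls and 5.50 ± 0.12 after deletion (SD, n = 3). The difference was -0.43 (SE 0.11, 95% interval -0.67 to -0.19), or 0.741 of the control level. It missed the threshold over all genes (adjusted p = 0.116), and with replicate 3 left out it fell by 0.50 (adjusted p = 0.00335).

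**Figure D5:**
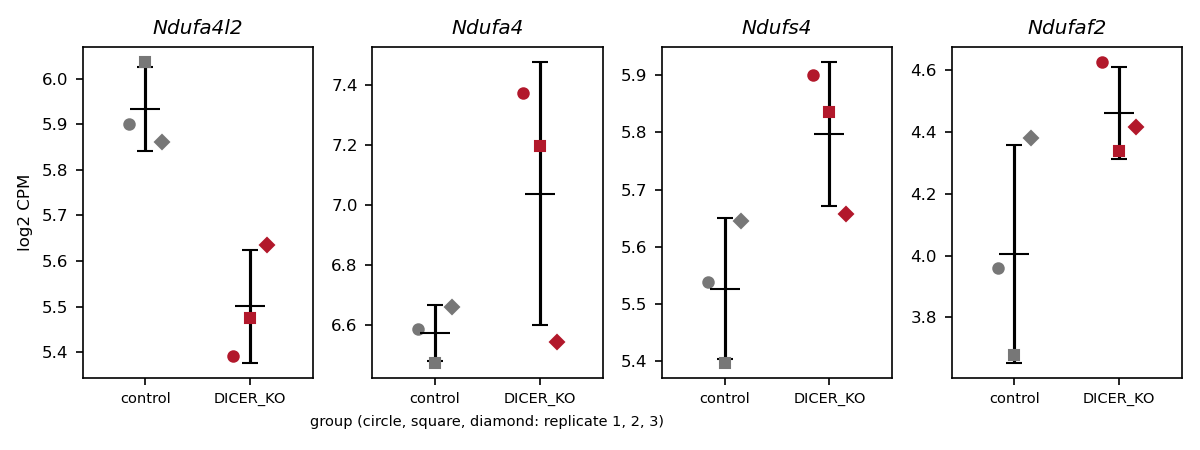
Log2 CPM of Ndufa4l2, Ndufa4, Ndufs4 and Ndufaf2 in 3 control and 3 DICER_KO libraries (points are libraries, bars the mean ± SD; each panel has its own scale). Ndufa4l2 is lower in the DICER_KO libraries (5.39 to 5.63) than in controls (5.86 to 6.04), and replicate 3 of Ndufa4 lies among the controls.

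Nuclear subunit genes of the other respiratory complexes had values of similar size. Those of complex III (9), complex IV (10) and ATP synthase (14) had medians of 0.24, 0.29 and 0.27, all positive values and 0 calls. Without DICER_KO replicate 3, 9, 10 and 13 of them rose, beside 12.5% of all genes. In replicate 3 their medians were -0.25, -0.15 and -0.17 against the control mean, below it as in the complex I subunits. The genes of smallest p were Uqcrb (0.46, adjusted p = 0.225) and Uqcrc2 (0.33, 0.371), Cox7c (0.38, 0.276) and Cox6a1 (0.31, 0.343), and Atp5g1 (0.45, 0.287) and Atp5l (0.31, 0.291). Genes for other routes of electrons into ubiquinone (10 of 12) had a median of 0.31 with 9 positive and 0 calls. Without replicate 3, 8 of them rose, against the same 12.5%. Among these 10 genes were Gpd2, the mitochondrial glycerol-3-phosphate dehydrogenase (0.43, adjusted p = 0.264), and Sdhb, the iron-sulphur subunit of complex II (0.38, adjusted p = 0.355).

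Regulators of nuclear genes for mitochondria (11 of 12) had a median of 0.18, with 7 positive and 0 calls. Ppargc1b, which encodes a PGC-1 coactivator, stood at 4.87, 5.06 and 4.93 log2 CPM in the control libraries, against 6.00, 6.15 and 4.48 after deletion, a difference of 0.59 (adjusted p = 0.401). Replicates 1 and 2 were above and replicate 3 below every control, as in many subunits. Tfb2m, a mitochondrial transcription factor gene, had a difference of 0.29 (adjusted p = 0.373). Of the factors whose motifs were searched, Nrf1 had a difference of -0.14 (adjusted p = 0.495), Gabpa 0.23 (0.447), Yy1 0.07 (0.764) and Esrra, an ERR gene, 0.18 (0.536), named for their motifs after their values were seen. Without replicate 3, 3 regulators rose (Ppargc1a, Ppargc1b and Esrra) and 0 fell, beside 12.5% and 7.22% of all genes.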

How the data were processed

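Poly(A) RNA of 3 control and 3 DICER_KO cultures was sequenced. The authors deposited log2 CPM values, a column for every library (0 columns belong to other samples). Tools listed in the submitters' processing notes are HISAT2, featureCounts, edgeR, Trimmomatic and FastQC, with builds mm10 and GRCm38 and no versions. Strand use in counting is not given in the sources used here, so a gene and an antisense neighbour cannot be separated. The values equal log2 of (whole reads + 0.5) scaled by an implied library size, to within 0.000382 reads, and recovered reads gave depth and 2 alternatives.

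Entrez IDs matched RefSeq GRCm38.p6 symbols for 13682 of 13734 rows, and 147 of 160 list entries had a row. In R 4.3.3, limma 3.58.1 modelled the log2 values of 10054 genes using a trended prior variance, taking genes reaching 1 CPM in 3 or more libraries, with group as the only term. Tests were two-sided, with Benjamini-Hochberg adjustment over all genes and a threshold of 0.05. Medians over lists carry no test. The test was also run on simulated data. Members, lists, tests and the rule for named genes were chosen with earlier results of these data known. Named are Dicer1, Ndufa4, Ndufa4l2, all Ndufaf genes, the core subunits, the 6 largest and 4 smallest subunit differences, the 2 highest and 2 lowest subunits, and the 2 genes of smallest p in each other list. One of these genes is not reported here. Marker genes named by it that did not pass were Lpl (-0.68, adjusted p = 0.280), Pparg (0.36, 0.319), Dcn (-0.81, 0.0814), Cd68 (0.39, 0.163), Csf1r (-0.16, 0.704), Tek (0.67, 0.118) and Kdr (-1.39, 0.319). Alternatives changed scaling, filter, pseudocount, test, library weights, the replicate term and the libraries. Other steps used Python 3.11.15 with scipy 1.17.1, pandas 2.3.3, numpy 2.4.6 and matplotlib 3.10.9.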

Additional observations from a re-analysis of the deposited data

How the results depend on the processing

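Over all alternatives run, the subunits' median difference lay between 0.15 (without DICER_KO replicate 1) and 0.46 and that of the assembly factors between 0.11 and 0.29. Their gap lay between -0.01 (without DICER_KO replicate 1) and 0.18 when single libraries were left out. Subunit calls were 0 in both directions except with library weights (32 higher) and without DICER_KO replicate 3 (33 higher), so leaving out libraries gave 0 to 33. Assembly factor calls were 5 higher with weights and 0 to 1 when libraries were left out. The weights, whose estimation stopped before it converged, ran from 0.203 for DICER_KO replicate 3 to 7.54 for control replicate 1. Over all genes 15 were higher and 29 lower. These counts were 6 and 13 with no intensity trend, 23 and 47 with robust empirical Bayes, and 2542 and 1942 with weights. Leaving out single libraries gave 0 to 1257 higher and 1 to 726 lower, and the cause was not tested. Deviations of same-numbered libraries from their group means had correlations of 0.195, -0.0142 and -0.0786. With 3 libraries per group these values cannot decide whether the numbers pair cultures. A replicate block left 0 genes higher and 2 lower. Dicer1 missed the threshold with no intensity trend, with the block, and when any single library other than DICER_KO replicate 3 was left out (adjusted p up to 0.146). Ndufb4c rests on 17 to 57 reads per library.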
